A study of Mus musculus with 12 samples.

Results

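Cytotoxic granule genes and the gene of interferon gamma were followed in 12 subcutaneous mouse tumors of the renal carcinoma line Renca. The set holds 8 genes chosen by symbol: the granzymes Gzma, Gzmb and Gzmk, the pore former Prf1, the granule companions Nkg7 and Ctsw, the death ligand Fasl and the cytokine Ifng. All 8 were found among the 14496 genes of the deposited table, and no filter on low values was applied. In 6 tumors a second Renca tumor was growing in the kidney of the host (with IK tumor), and 6 tumors grew with no kidney tumor (alone). Every host carried the BALB/C strain label, every subcutaneous tumor came from injected Renca cells, and all were taken on day 14. Renca is a single transplanted line, and libraries were made from whole tumors, so that tumor cells and stroma are mixed. Host age and sex are not given in the sources used here, nor is it stated whether each tumor came from its own mouse, so p-values measure the spread between these samples only.

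Cytotoxic T cells and natural killer (NK) cells kill by 2 routes. In the granule route perforin opens the target membrane and granzymes, serine proteases stored in the same granules, enter and cleave target proteins. In the death receptor route Fas ligand on the killer engages Fas on the target. The same cells secrete interferon gamma, which raises antigen presentation and chemokine production in surrounding cells. T-box factors (T-bet, encoded by Tbx21, and Eomes) and Runx3 are known regulators of this effector programme in mouse lymphocytes.

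The 250 bases before the annotated start were matched by symbol in the RefSeq promoter table (build GRCm38.p6) for 7 of the 8 genes, all but Ctsw. They are shown for 5 genes, so that the granzymes, the pore former, the companions and the cytokine each have 1 or more. Capitals mark matches, on either strand, to the T-box core AGGTGT, the Runx core TGTGGT, the AP-1 motif TGANTCA or the interferon-gamma activated site (TTC, any 3 bases, GAA). Each line runs 5′ to 3′ on the strand of the gene.
Gzma (chr13:113100982-113101231, minus strand): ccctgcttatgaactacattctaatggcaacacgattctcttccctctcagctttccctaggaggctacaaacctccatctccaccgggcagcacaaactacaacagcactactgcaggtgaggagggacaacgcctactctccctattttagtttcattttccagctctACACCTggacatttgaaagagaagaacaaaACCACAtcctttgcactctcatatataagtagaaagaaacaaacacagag
Gzmb (chr14:56262335-56262584, minus strand): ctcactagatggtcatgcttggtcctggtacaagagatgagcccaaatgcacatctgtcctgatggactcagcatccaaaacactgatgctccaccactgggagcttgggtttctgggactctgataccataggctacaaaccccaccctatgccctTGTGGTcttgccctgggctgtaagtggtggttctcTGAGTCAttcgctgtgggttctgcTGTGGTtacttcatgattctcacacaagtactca
Prf1 (chr10:61297586-61297835, plus strand): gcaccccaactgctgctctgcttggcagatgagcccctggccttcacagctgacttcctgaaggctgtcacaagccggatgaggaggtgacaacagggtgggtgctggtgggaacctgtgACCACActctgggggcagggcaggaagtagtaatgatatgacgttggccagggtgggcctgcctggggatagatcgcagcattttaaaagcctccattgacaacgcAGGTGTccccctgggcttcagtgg
Nkg7 (chr7:43436888-43437137, plus strand): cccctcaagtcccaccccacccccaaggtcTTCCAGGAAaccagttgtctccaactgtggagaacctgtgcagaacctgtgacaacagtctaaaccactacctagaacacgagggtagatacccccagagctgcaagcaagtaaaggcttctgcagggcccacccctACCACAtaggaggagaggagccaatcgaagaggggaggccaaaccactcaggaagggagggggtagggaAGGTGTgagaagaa
Ifng (chr10:118440796-118441045, plus strand): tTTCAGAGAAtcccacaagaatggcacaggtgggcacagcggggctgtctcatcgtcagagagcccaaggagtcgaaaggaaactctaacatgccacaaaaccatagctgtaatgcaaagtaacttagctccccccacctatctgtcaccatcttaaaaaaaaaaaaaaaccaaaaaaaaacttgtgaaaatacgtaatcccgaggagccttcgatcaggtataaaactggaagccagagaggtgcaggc
A T-box core was found in 4 of the 7 windows (Gzma, Gzmk, Prf1 and Nkg7), against 11.8% of all 32851 promoter windows of the table. The Runx core was in 4 of 7 (Gzma, Gzmb, Prf1 and Nkg7), against 14.0% of all windows. AP-1 matched in Gzmb only (1 of 7 windows, 6.75% of all), and the interferon-gamma activated site in Nkg7 and Ifng (2 of 7, 7.02% of all). The Fasl window, which is not shown, had no match to any of these motifs. These are matches of letters and not measured binding, and the reads themselves were placed on another build, mm9.

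Each tumor gave 53312559 to 66142468 reads. Levels are log2 CPM, the log2 of the read count scaled to library size. The keratin gene Krt18, a marker of the epithelial tumor cells, averaged 8.47 in the IK group and 8.54 in the other. Across the whole table limma called 0 of 14496 genes at a Benjamini-Hochberg adjusted p of 0.05 (percent called 0), with 1677 genes (11.6%) at an unadjusted p under 0.05. Limma voom on recovered reads also called 0 (1742 unadjusted, 12%), as did an exact permutation test of each gene (1418 unadjusted, 9.78%).

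All 8 genes had lower mean levels in tumors of hosts that also bore an IK tumor, against 47.5% of all genes, with differences of -2.72 to -1.43 log2 units. None passed the test over all genes. In each group a single tumor lay toward the other group. IK replicate 2 was the highest of its group for 8 of 8 genes, and alone replicate 6 was the lowest of its group for 8 of 8. With these tumors included the groups overlapped for every one of the 8 genes. How often such an order or overlap held over all genes was not counted.

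**Figure D1:**
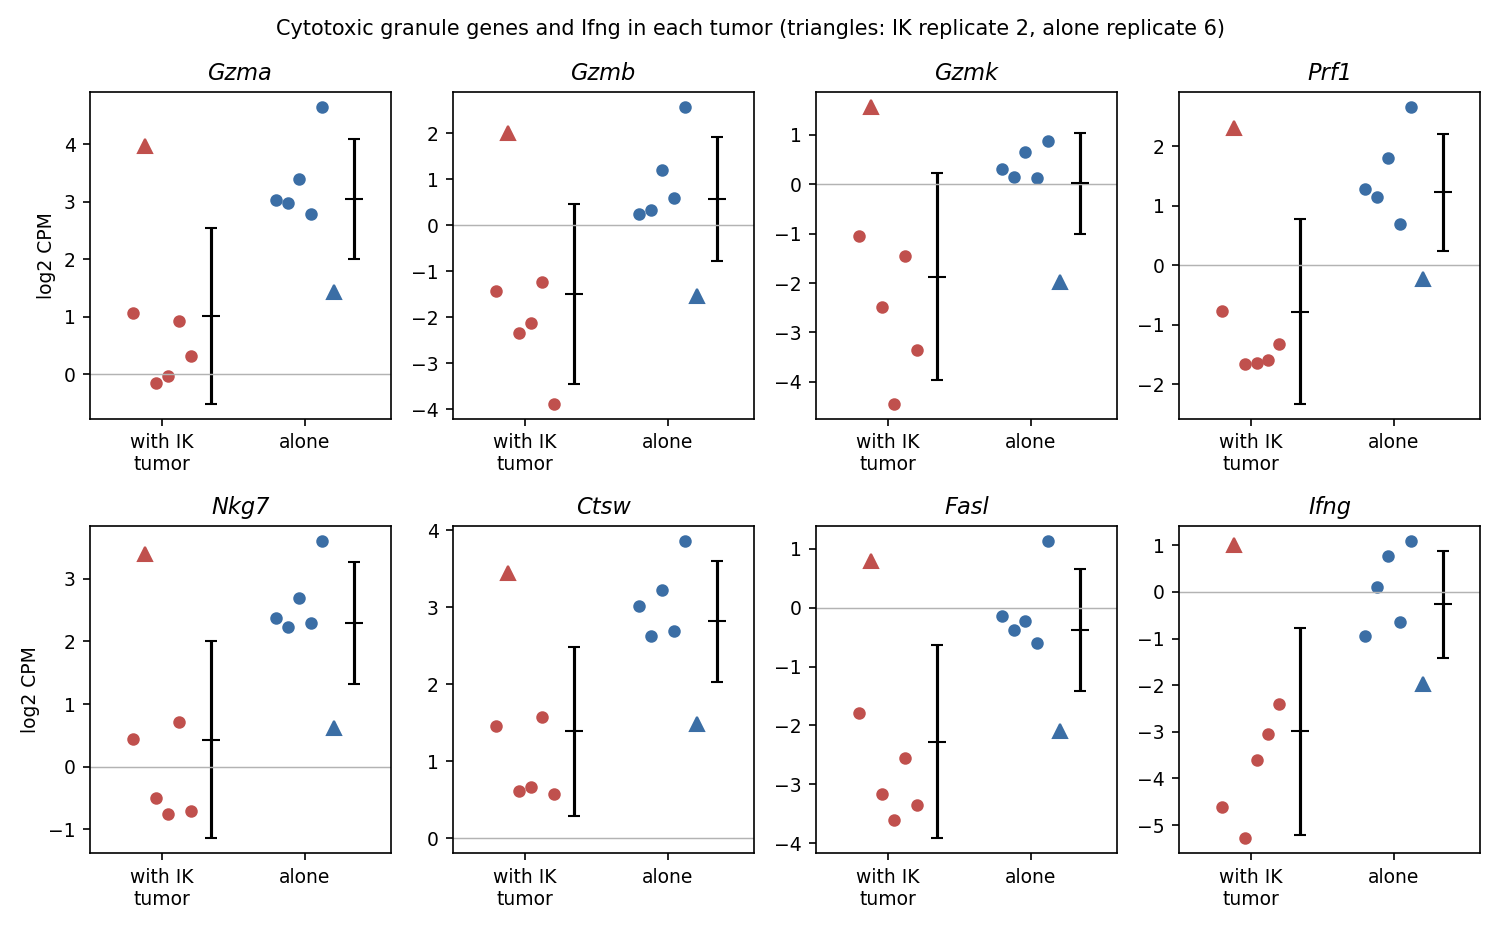
Level of each gene (log2 CPM, vertical axis) in the 6 tumors with an IK tumor (red) and the 6 alone (blue), with the mean and SD as black bars and a grey line at 0. Triangles are IK replicate 2 and alone replicate 6: for Gzma the first stands at 3.98 among values of -0.15 to 1.06, and the second at 1.43 among values of 2.78 to 4.65.

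Gzma encodes granzyme A, a trypsin-like protease that is abundant in NK cells and cytotoxic T cells. With an IK tumor its level was 1.06, 3.98, -0.15, -0.03, 0.93 and 0.31 log2 CPM in replicates 1 to 6. Alone it was 3.03, 2.98, 3.40, 2.78, 4.65 and 1.43. Apart from replicate 2, every IK tumor lay below every tumor alone, and the lowest tumor still held 52 reads. Group means were 1.02 ± 1.53 and 3.05 ± 1.04 in that order (SD, n = 6 each), a difference of -2.03 (SE 0.67, 95% interval -3.49 to -0.57). As geometric means this was 4.09-fold lower with an IK tumor.

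Gzmb encodes granzyme B, the protease that cleaves after aspartate and activates caspases in target cells. Its level with an IK tumor was -1.43, 2.001, -2.35, -2.13, -1.22 and -3.88 log2 CPM, from 22, 229, 11, 12, 26 and 4 reads. Alone it was 0.25, 0.34, 1.21, 0.60, 2.57 and -1.53, from 67, 79, 131, 95, 378 and 18 reads. Replicate 6 of the alone group fell inside the range of the IK group, below IK replicates 1 and 5. The group difference was -2.07 (SE 0.87).

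Gzmk encodes granzyme K, a trypsin-like granzyme typical of effector memory CD8 T cells. Its level with an IK tumor was -1.04, 1.56, -2.48, -4.45, -1.46 and -3.35 log2 CPM. In the tumors alone it was 0.32, 0.14, 0.66, 0.12, 0.87 and -1.98. Here IK replicate 2 was the highest of all 12 tumors, and IK replicate 4 held only 2 reads of the gene. The difference was -1.89 (SE 0.85), with an interval that reached from -3.74 to -0.04.

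Prf1 encodes perforin. Its level with an IK tumor was -0.77, 2.32, -1.66, -1.64, -1.59 and -1.32 log2 CPM and only replicate 2 was above 0. Alone it was 1.29, 1.15, 1.798, 0.70, 2.66 and -0.23. Alone replicate 6, the lowest of its group, still lay above those 5 IK tumors. The difference was -2.01 (SE 0.67).

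Nkg7, a granule membrane protein that takes part in degranulation, was at 0.44, 3.39, -0.49, -0.75, 0.71 and -0.71 log2 CPM with an IK tumor. Alone it was at 2.37, 2.23, 2.69, 2.29, 3.60 and 0.61. Ctsw, the cysteine protease cathepsin W of cytotoxic and NK cells, was at 1.46, 3.45, 0.62, 0.66, 1.57 and 0.57 with an IK tumor. Its values alone were 3.01, 2.63, 3.22, 2.69, 3.86 and 1.49. For both genes alone replicate 6 lay at the level of IK replicates 1 and 5, and the remaining alone tumors lay above them. Differences were -1.87 for Nkg7 (SE 0.67) and -1.43 for Ctsw (SE 0.49), the smallest in size of the 8 genes.

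Fasl encodes Fas ligand. Its level with an IK tumor was -1.79, 0.80, -3.17, -3.60, -2.56 and -3.35 log2 CPM, and 4 of these tumors held 4 to 10 reads. Alone it was -0.14, -0.38, -0.23, -0.61, 1.13 and -2.09. Only IK replicate 2 and alone replicate 5 reached 1 CPM (log2 of 0). The difference was -1.89 (SE 0.72).

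Ifng encodes interferon gamma and had the largest difference in size of the 8 genes, -2.72 (SE 0.92, 95% interval -4.71 to -0.73), or 6.60-fold as geometric means (1.66 to 26.2). With an IK tumor its level was -4.60, 1.00, -5.28, -3.60, -3.04 and -2.41 log2 CPM, from 2, 114, 1, 4, 7 and 12 reads. Alone it was -0.94, 0.10, 0.76, -0.64, 1.09 and -1.98, from 29, 67, 96, 40, 135 and 13 reads. IK replicate 2 again stood with the highest tumors alone. Counting error is large at the low end: 1 read has an exact Poisson 95% interval of 0.0253 to 5.57 reads, which covers counting error only. In a newer annotation (GENCODE M21) 25.9% of the Ifng exon bases are shared with Gm49751 on the same strand. Gm49751 was not in the deposited table. The annotation used in counting is not given, so whether the overlap affected the Ifng reads is not known.

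In the test over all genes, limma gave each of the 8 genes the same adjusted p of 0.431 (Benjamini-Hochberg), from unadjusted p-values of 0.0101 for Gzma to 0.0460 for Gzmk. All 8 were lower at an unadjusted p under 0.05, against 5.82% of all genes (843 of 14496), and all 8 had a difference of -1 or lower, against 1.29% (187 genes). The median difference was -1.95 over the 8 genes and 0.01 over all genes. By two-sided exact permutation of the tumors (924 assignments, smallest possible p of 0.00216), 6 of the 8 were lower at an unadjusted p under 0.05, against 4.2% of all genes. Their exact permutation p-values ran from 0.0303 for Prf1 and Ifng to 0.0563 for Gzmb and 0.0801 for Gzmk. Limma voom gave 8 of 8 lower at an unadjusted p under 0.05, against 6.16%. The genes shared the same tumors and similar profiles, so these are not 8 separate results. They were also chosen with earlier results of these data known, so the shares describe the set and do not test it.

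Of the 2 tumors that stood apart, leaving out IK replicate 2 changed the calls and leaving out alone replicate 6 did not. Without IK replicate 2, limma called 254 of 14496 genes (1.75%), 207 of them lower (1.43%), among them 6 of the 8 genes. Those were Gzma at -2.62, Prf1 at -2.63, Nkg7 at -2.46, Ctsw at -1.84, Fasl at -2.51 and Ifng at -3.52 (adjusted p of 0.0313 to 0.0369). Gzmb (-2.78, adjusted p = 0.0511) and Gzmk (-2.58, adjusted p = 0.0599) did not pass in that limma fit. Without alone replicate 6, limma called 0 genes (3031 or 20.9% at an unadjusted p under 0.05), and all 8 were lower at an unadjusted p under 0.05, against 11.6% of all genes. The 8 differences then were -1.70 to -3.06 with adjusted p of 0.194 to 0.200. With limma array weights, which give tumors that stand apart less weight, 602 genes were called (4.15%), 457 of them lower (3.15%), among them 7 of the 8 and not Gzmk. Leaving out or weighting down a tumor because it lies on the opposite side enlarges the difference, and these p-values hold only given the removal.

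**Figure D2:**
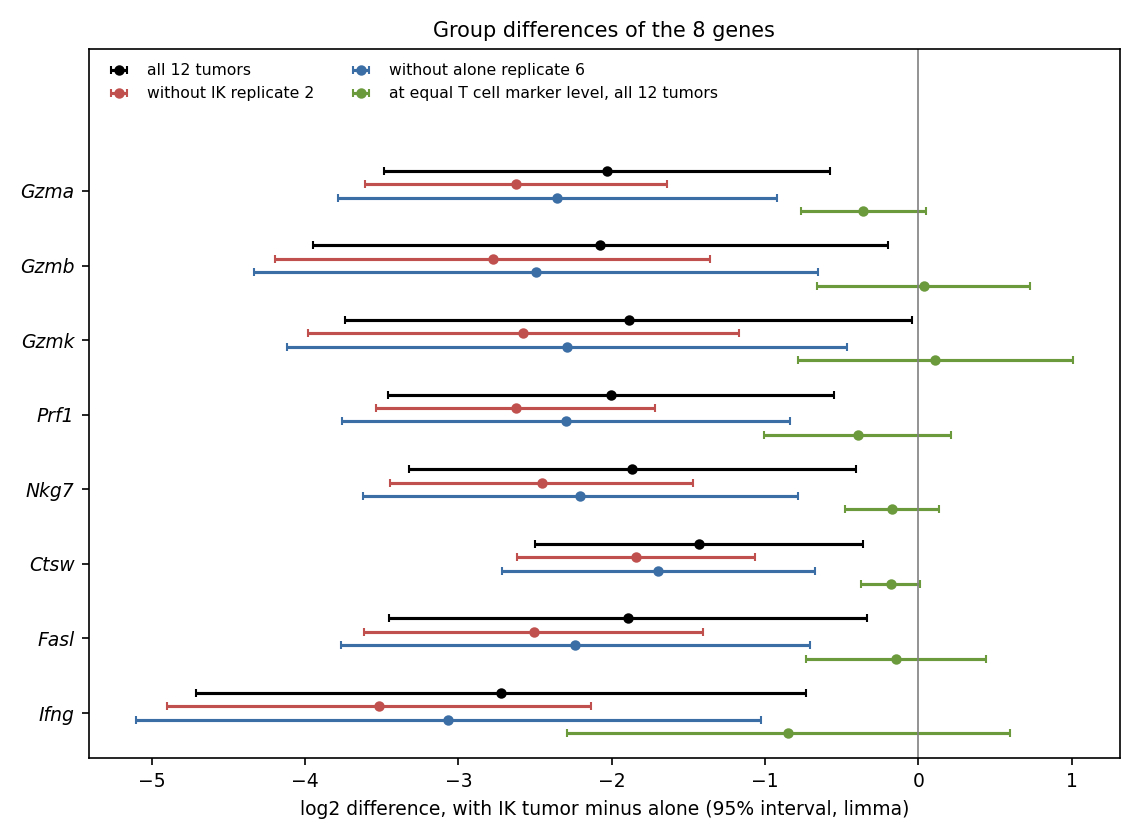
Difference in log2 CPM (horizontal axis, with IK tumor minus alone) with its 95% interval from limma for each gene, from all 12 tumors (black), without IK replicate 2 (red), without alone replicate 6 (blue), and at equal T cell marker level (green). The black intervals all lie below 0, for Gzmk only to -0.04, while every green interval includes 0.

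The 8 genes were among the most variable of the table. The SD within groups ran from 0.958 for Ctsw to 1.76 for Ifng (residual, log2 units), against a median of 0.117 over all genes. That of Ctsw was larger than for 98.3% of genes and that of Ifng larger than for 99.7%. Genes were not matched for level here: the median of all values was 4.78 log2 CPM, above the group means of all 8 genes. The mean of the T cell marker genes described below also varied, with an SD of 1.11 with an IK tumor and 0.82 alone. The spread of the 8 genes followed the same tumors throughout. Alone replicate 5 was the highest of all 12 tumors for 7 of the 8 genes, and IK replicate 2 was among the 3 highest for 8 of 8. IK replicates 3 and 4 were among the 3 lowest for 8 of 8, and IK replicate 6 for 6 of 8. Shares over all genes were not counted for these ranks.

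Within this shared order some genes tracked each other more closely. Likeness was measured as the root-mean-square (RMS) difference between 2 genes over the 12 tumors, each centred on its own mean. Gzma and Nkg7 were the closest pair at 0.24 log2 units, followed by Gzma and Fasl at 0.25. Gzmk and Ifng were the farthest apart at 1.33. Ctsw and Ifng (1.21) and Gzmb and Ifng (1.18) were the next farthest. The RMS difference also grows with a gene's own spread and counting error, and Ifng had the largest spread of the set.

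Levels between genes were compared per kilobase of exon (CPM per kilobase, GENCODE M21 exon lengths). Alone, the geometric means were 8.21 for Gzma, 5.38 for Nkg7, 3.73 for Ctsw, 1.04 for Gzmb, 0.907 for Prf1, 0.730 for Gzmk, 0.641 for Ifng and 0.395 for Fasl. Gzma exceeded Nkg7 in 6 of 6 tumors alone and in 6 of 6 with an IK tumor. Ctsw exceeded Gzmb in 6 of 6 in both groups, by 1.85 ± 0.61 log2 units alone. Nkg7 and Ctsw kept no fixed order: with the exon length of the basic transcript set, chosen after seeing the data, the Ctsw mean alone was 5.68 in place of 3.73, and Nkg7 was then the higher in 3 of 6 tumors alone. Neighbours among Gzmb, Prf1, Gzmk and Ifng differed alone by 0.19 to 0.31 log2 units with SDs of 0.48 to 0.59 within tumors, so their order is within the spread. Ifng exceeded Fasl alone by 0.70 ± 0.60 and in 5 of 6 tumors, and with an IK tumor the same difference was -0.13 ± 1.45, with Ifng the higher in 4 of 6. With an IK tumor the geometric means ran from 2.01 for Gzma to 0.0972 for Ifng.

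Marker genes of T cells and NK cells, the cells known to carry these genes, were measured in the same libraries. For all 10 listed T cell genes the mean was lower in the IK group, and the mean over the list was 0.94 ± 1.11 log2 CPM against 2.22 ± 0.82 alone (ranges 0.11 to 3.07 and 0.79 to 3.19). Cd3e, a chain of the T cell receptor complex, differed by -1.24, the CD8 coreceptor gene Cd8a by -1.66 and the CD4 gene Cd4 by -0.85. All 6 NK genes in the table were lower in mean as well (-0.63 to 2.54 with an IK tumor, 0.19 to 3.01 alone), with the NK receptor gene Ncr1 at -1.79. With all tumors none of the T cell or NK genes passed over all genes, and Cd3e, Cd8a, Cd4 and Ncr1 each had an adjusted p of 0.431 (limma). At an unadjusted p under 0.05 in limma, 9 of the 10 T cell genes and 5 of the 6 NK genes were lower, against 5.82% of all genes. Without IK replicate 2, limma called 7 of the 10 T cell genes and 2 of the 6 NK genes, against 1.75% of all genes. In bulk tumor RNA, fewer cytotoxic cells and less RNA per cell cannot be told apart.

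To set the 8 genes beside the number of T cell transcripts, the limma fit was repeated with the mean of the T cell list as a covariate. At equal T cell marker level the differences were -0.36 for Gzma (95% interval -0.77 to 0.05), -0.40 for Prf1 (-1.01 to 0.21), -0.17 for Nkg7 (-0.48 to 0.13) and -0.18 for Ctsw (-0.38 to 0.01). They were 0.03 for Gzmb (-0.66 to 0.73), 0.11 for Gzmk (-0.78 to 1.01), -0.15 for Fasl (-0.74 to 0.44) and -0.85 for Ifng (-2.29 to 0.60). Limma called 0 of 14496 genes in this fit (percent called 0, with 1111 or 7.66% at an unadjusted p under 0.05), and 0 of the 8 were lower at an unadjusted p under 0.05, against 4.05% of all genes. In this fit 6 of the 8 were below 0, against 49.1% of all genes. The wide interval of Ifng does not show that it stayed level, and the covariate differed between the groups itself. Leaving out 1 tumor moved several of these values by over 1.5 times: without IK replicate 2, Prf1 was -0.91 (-1.75 to -0.08), Gzma -0.57, Nkg7 -0.33, Fasl -0.35 and Ifng -1.95. Without alone replicate 6, Prf1 was -0.20, Gzma -0.22, Nkg7 -0.06 and Fasl -0.01. The interval also ended below 0 for Gzma without IK replicate 6, and for Ctsw without IK replicate 5 or alone replicate 4, and none of the 8 passed adjustment in any of these limma fits. With pan-leukocyte genes as the covariate in its place, 6 of the 8 were lower at an unadjusted p under 0.05 (4.7% of all genes), with Gzma at -1.01, and 0 passed adjustment.

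Within single tumors, Ctsw followed the T cell genes most closely. Its log2 ratio to their mean was 0.45 ± 0.10 with an IK tumor and 0.60 ± 0.10 alone (SD, n = 6 each), and spanned 0.396 log2 units over the 12 tumors against 3.29 for its level. For Gzma that ratio was 0.08 ± 0.47 with an IK tumor and 0.83 ± 0.35 alone. For Ifng it was -3.93 ± 1.47 and -2.48 ± 0.60, with a span of 3.75 log2 units. The ratio was -2.44 ± 0.94 and -1.64 ± 0.60 for Gzmb, and -2.81 ± 1.12 and -2.19 ± 0.33 for Gzmk. It was -1.72 ± 0.60 and -0.99 ± 0.34 for Prf1, -0.51 ± 0.47 and 0.08 ± 0.22 for Nkg7, and -3.22 ± 0.58 and -2.60 ± 0.36 for Fasl. The mean ratio was thus lower with an IK tumor for every gene of the set. For Gzmb it differed by -0.80 and for Gzmk by -0.61, where the covariate fit gave 0.03 and 0.11. The ratio sets the slope on the T cell mean to 1, and the fit estimates it.

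**Figure D3:**
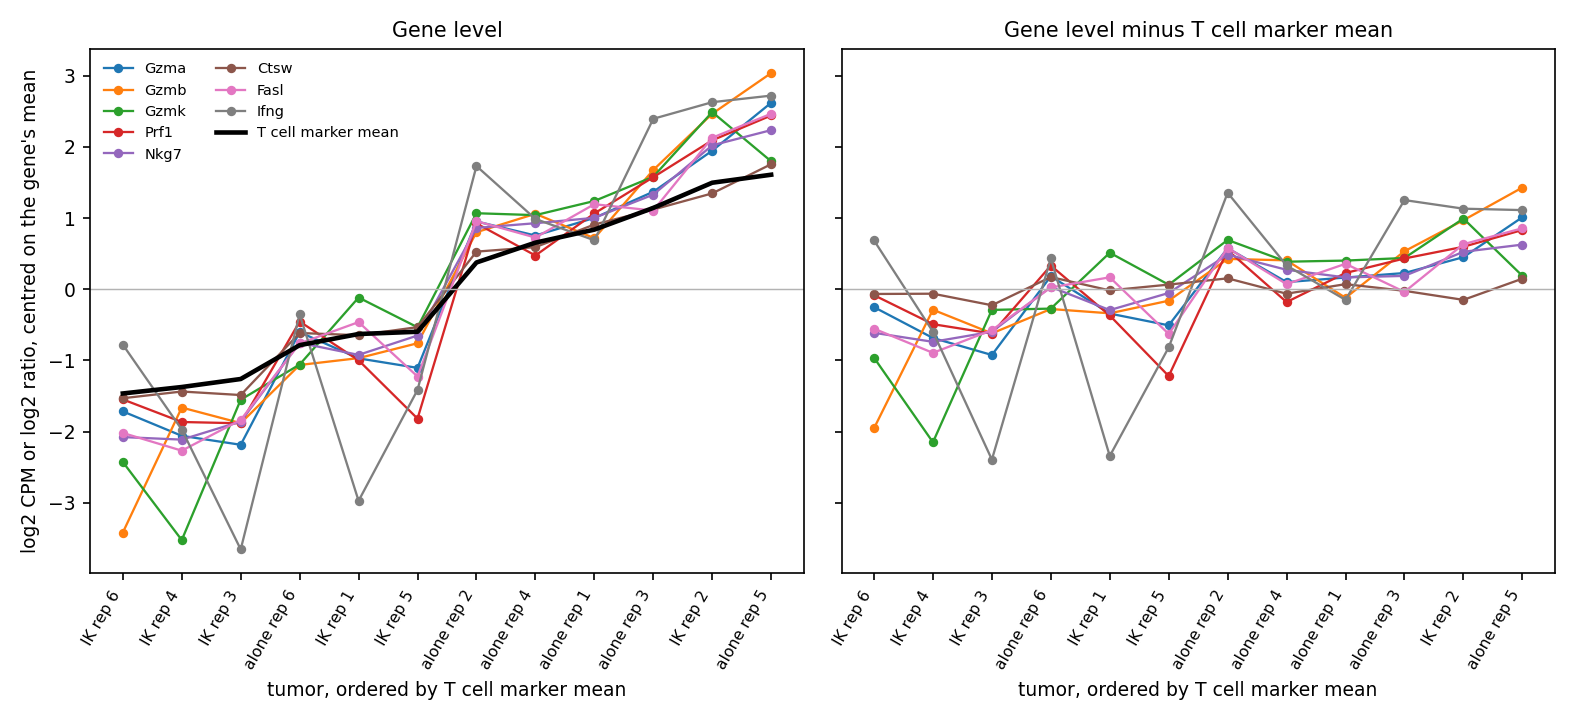
Left, level of each gene centred on its mean over the 12 tumors (log2 CPM, vertical axis), with the T cell marker mean as a thick black line. Right, the log2 ratio of each gene to that mean, centred in the same way. Tumors are ordered by the T cell marker mean, and the line of Ctsw on the right stays nearly flat with a span of 0.396, against 3.75 for Ifng.

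Outside the set, the genes whose profiles over the 12 tumors lay closest to the mean of the 8 were Gbp4 (RMS difference 0.17 log2 units), Serpina3f (0.19), Gm4841 (0.22), Gm43302 (0.22) and Serpina3g (0.23). They were followed by Gm12250 (0.24), F830016B08Rik (0.24), Tgtp2 (0.25), Tgtp1 (0.27) and Iigp1 (0.29), and the median over 13996 other named genes was 1.596. Gbp4, Tgtp1, Tgtp2 and Iigp1 are known as interferon-induced GTPases, and Serpina3f and Serpina3g as serine protease inhibitors. Reads of close copies such as Tgtp1 and Tgtp2 may have been split between them. Each of the 8 had its own nearest genes. Ctsw was closest to the lymphocyte gene Ms4a4b (0.12), then Zbp1 (0.16) and Cd5 (0.17), and Nkg7 to Gbp4 (0.17), Gm4841 (0.22) and F830016B08Rik (0.22). Gzma was closest to Serpina3f (0.24), Gbp4 (0.25) and Gm43302 (0.26). For Gzmb the closest was the T-box factor Eomes (0.40), then Izumo1r (0.49) and Sidt1 (0.50), and for Gzmk it was Pglyrp2 (0.33), then Cd8a (0.45) and Gimap7 (0.47). Prf1 was closest to the chemokine Cxcl11 (0.30), to Ncr1 (0.31) and to Serpina3f (0.31), and Fasl to Sidt1 (0.31), Gbp4 (0.34) and Gm12250 (0.34). Ifng had no gene as near: Cxcl9, a chemokine induced by interferon gamma, lay at 0.75, Cxcl11 at 0.85 and Tbx21 at 0.87. Given its large spread and few reads, this distance alone does not set the Ifng profile apart.

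Genes around the granule route itself differed little. Of 15 genes for granule content, maturation and release, 9 had a lower mean in the IK group, with a median difference of -0.04 against 0.01 over all genes. Only Unc13d, which primes granules for fusion, was at an unadjusted p under 0.05 (-0.33), and 0 passed over all genes in limma. For this and the lists that follow, 5.82% of all genes were lower at an unadjusted p under 0.05, and 11.6% in either direction. The lists were chosen with earlier results of these data known, so their counts are descriptions only. The signalling adaptor Hcst differed by -0.59, Srgn, the proteoglycan that packs granule proteases, by -0.43, and Ctsc, which activates granzymes, by -0.19. Lyst, Rab27a and Stx11, also known from granule transport and release, lay at 0.12, 0.08 and -0.13. Many of these genes are also used by other cells, and Ctsc lay at 8.37 log2 CPM even with an IK tumor.

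Inhibitors of granule proteases had lower means in 5 of 6 (median difference -0.18, 1 of 6 at an unadjusted p under 0.05, 0 called by limma). Cst7, the cystatin of cytotoxic cells, differed by -1.14 and Serpinb1a by -0.55. Serpinb9, an inhibitor of granzyme B, averaged 8.19 and 8.39 log2 CPM, a difference of -0.20. Serpinb9b differed by -0.15.

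In the death receptor list 6 of 10 genes had lower means, with a median difference of -0.04, and 2 were lower at an unadjusted p under 0.05. Those were the ligands Lta, which encodes lymphotoxin alpha, at -1.75 and Tnfsf10, which encodes TRAIL, at -1.18. The receptor gene Fas, the partner of Fasl, averaged 1.77 and 2.07 log2 CPM in the 2 groups (-0.31), and the TRAIL receptor gene Tnfrsf10b differed by 0.09. Tnf differed by -0.07 and the intracellular genes Casp8 and Fadd by -0.04 and 0.00. None passed over all genes in limma.

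Genes that promote interferon gamma production had lower means in 13 of 13, with a median difference of -0.46, and 3 of 13 were at an unadjusted p under 0.05, against 5.82% of all genes lower. These 3 were Tbx21 (-2.28, SE 0.77), Eomes (-1.88, SE 0.70) and Il2rb (-1.59, SE 0.58), a receptor chain for interleukins 2 and 15. Stat4, which carries the interleukin 12 signal, differed by -0.78 and the receptor chain gene Il12rb2 by -0.64. At equal T cell marker level Tbx21 lay at -0.48, Eomes at -0.16 and Il2rb at -0.13. No gene of the list passed over all genes in limma with all tumors. Without IK replicate 2 the same 3 genes passed (limma, adjusted p of 0.0359 to 0.0367), where 1.75% of all genes did.

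On the receiving side, the receptor genes Ifngr1 and Ifngr2 differed by 0.04 and 0.01, and the kinase genes Jak1 and Jak2 by 0.02 and -0.11. Socs1, a feedback inhibitor, differed by -0.83 and Irf1 by -0.57. The phosphatase gene Ptpn2 differed by 0.09 in the other direction. In this list 4 of 8 genes had lower means, 1 was lower and 1 higher at an unadjusted p under 0.05, and 0 passed over all genes in limma with all tumors. Without IK replicate 2, 3 of the 8 passed (limma), where 1.75% of all genes did. In that fit 1 gene passed in each of the granule content, protease inhibitor and death receptor lists.

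**Figure D4:**
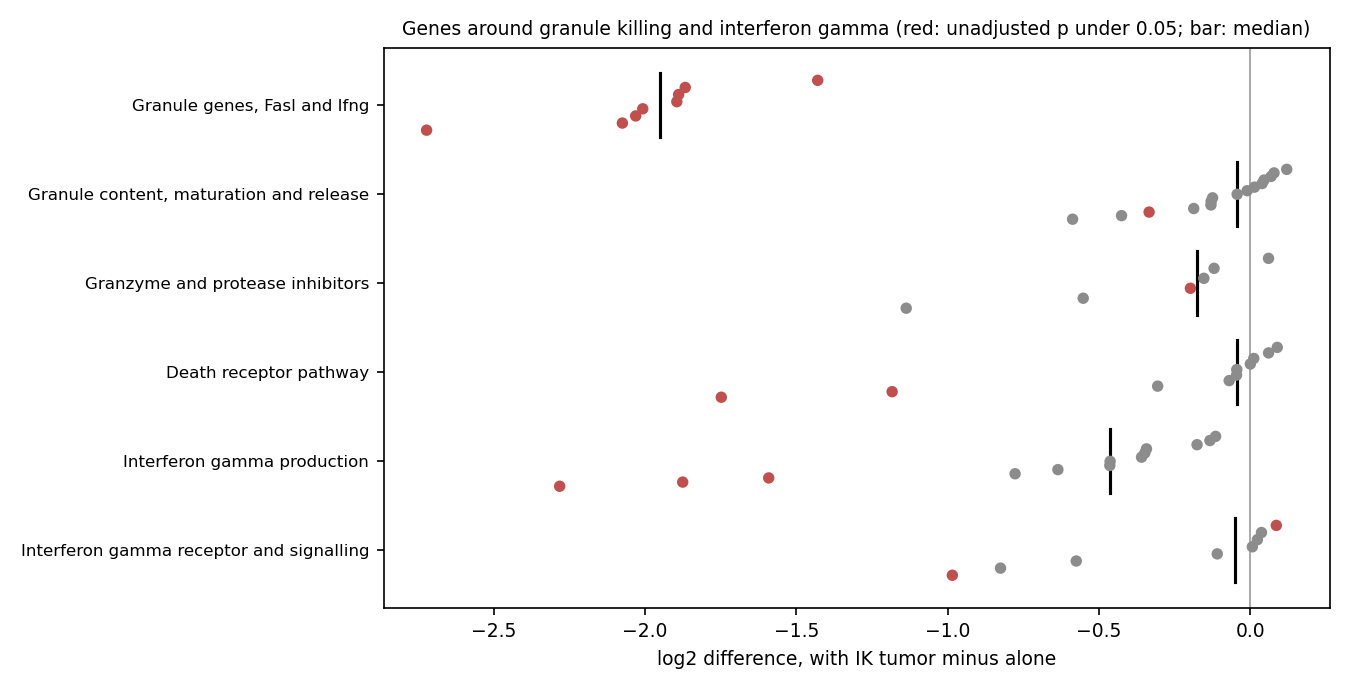
Difference in log2 CPM (horizontal axis, with IK tumor minus alone) for each gene of the set and of 5 lists around it, with red points for an unadjusted p under 0.05 in limma and a black bar at the median. The set has a median of -1.95, and the lists lie between -0.46 and -0.04.

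Other cell types were measured in the same libraries, and their part in the differences of the 8 genes was not tested. Regulatory T cell genes had lower means in 4 of 4, with Foxp3 at -1.43 (mean over the list, -0.39 to 2.48 log2 CPM in the IK group and 0.11 to 3.06 in the other). Plasmacytoid dendritic cell genes were lower in mean in 4 of 4, with Siglech at -1.21 (list mean 3.45 to 5.43 and 4.03 to 5.90). Pan-leukocyte genes were lower in mean in 7 of 7 by a median of -0.27 (6.28 to 7.20 and 6.23 to 7.27), with Ptprc, the CD45 gene, at -0.35. Macrophage genes were lower in mean in 6 of 7 by a median of -0.15 (8.06 to 8.50 and 8.05 to 8.45), and the median of the 4 neutrophil genes was -0.27 (1.798 to 2.83 and 1.78 to 3.08). Medians were -0.85 for 4 B and plasma cell genes (-1.31 to 1.65 and -0.91 to 2.16), -1.33 for 4 fat cell genes (-1.38 to 1.27 and 0.34 to 2.61), -0.43 for 6 fibroblast genes (7.86 to 9.42 and 7.93 to 9.74) and -0.18 for 5 endothelial genes (4.35 to 4.99 and 4.26 to 5.28). Red cell genes were higher in mean in 4 of 4 by a median of 0.31 (3.04 to 3.69 and 2.84 to 3.45). Of 7 mast cell genes only Kit was in the table (-0.40), and of 4 gamma delta T cell genes only Sox13 (-0.02). The 7 other granzymes looked for (Gzmc, Gzmd, Gzme, Gzmf, Gzmg, Gzmm and Gzmn) matched no gene symbol in the table. The table holds only genes that reached 1 CPM in at least 2 tumors, so absence from it does not show that a gene had no reads.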

How the data were processed

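Total RNA of 12 whole tumors was sequenced from Illumina TruSeq libraries, per the labels' protocols. Per the submitters' processing notes, TopHat 1.4.1 and HTSeq were used with the build mm9, and CASAVA 1.8.2 and limma are also listed. Settings, strand handling and annotation are not given in the sources used here. The authors deposited log2 values, in the form of log2 CPM with 0.5 reads added. Whole reads came out for 100% of values (within 0.001 of a read) and gave 53312559 to 66142468 reads per tumor. Every gene reached 1 CPM in at least 2 tumors.

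Symbols were attached by Ensembl identifier (14004 of 14496). The members and gene lists were chosen with earlier results of these data known. All 14496 genes were tested without a further filter (limma 3.58.1, R 4.3.3, variance trend, two-sided, Benjamini-Hochberg, threshold 0.05), with differences as IK tumor minus alone. Of the 8 genes, 6 would pass a filter of log2 0 in 6 tumors. The fit was tested on simulated data. Named genes were the 8, the 3 closest genes to each, the 10 closest to their mean, and up to 4 per list by size of difference, and others were chosen after their values were seen. Values of 1 list gene are not reported here. Among 30 pairs of tumors within groups, chi-square per degree of freedom was 13.2 to 164, so none was a duplicate. Alternatives covered filter, scaling, test, variance model, weights, replicate block, covariates and leaving out each tumor.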

Additional observations from a re-analysis of the deposited data

Results flagged for a closer look

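In the 56 sets of 6 values searched (8 genes and 20 gene lists in each group), 16 held a tumor whose gap to the rest exceeded Dixon's 95% critical value. Chance gives about 1 in 20. Of these, 14 were IK replicate 2, high in its group, and 2 were alone replicate 6, low in its group. Among the 8 genes, IK replicate 2 stood apart for Gzma (3.98 log2 CPM), Prf1 (2.32), Nkg7 (3.39) and Ctsw (3.45), and alone replicate 6 for Gzmk (-1.98). For Gzmb, Fasl and Ifng no tumor exceeded the value. IK replicate 2 also stood apart in the mean level of the lists around them: granule content and release (6.73), granule protease inhibitors (5.89), death receptor genes (4.17), interferon gamma production (2.84), and interferon gamma receptor and signalling (6.73). It did so as well for T cell (3.07), NK cell (2.54), regulatory T cell (2.48), pan-leukocyte (7.20) and macrophage genes (8.50). Alone replicate 6 also stood apart for skeletal muscle genes, at -1.35. The flags share tumors and are not separate results.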

How the results depend on the processing

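The 8 differences stayed below 0 in every alternative fit of the group difference (22 or 23 per gene). With all tumors and equal weights, 0 of the 8 passed over all genes in limma. Limma array weights called 602 genes and 7 of the 8, with IK replicate 2 weighted 0.322, alone replicate 6 0.475 and alone replicate 5 0.485, and 1.85 at most for another tumor. Leaving out single tumors gave 0 to 254 called genes and 0 to 6 of the 8, both highest without IK replicate 2. Without a variance trend limma called 2 genes, none of the 8. Lowest and highest differences with a tumor left out were -2.62 and -1.71 for Gzma, -2.78 and -1.60 for Gzmb, and -3.52 and -2.26 for Ifng. Quantile normalization gave a mean over the 8 of -1.61 against -1.99.

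The replicate block called 0 genes and 0 of the 8 (limma). Over all genes, 2 of 6 same-numbered pairs had deviations correlated above 0.1, and 1 of 6 matched its own number best. With the block the SE was lower for each of the 8, for Gzmb 0.67 against 0.87. So few pairs cannot decide whether equal numbers pair the tumors.

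At equal marker level 0 of the 8 passed in any alternative. Gzmb, at 0.03 with T cell genes as the covariate, turned to -0.14 with CD8 genes and -0.78 with pan-leukocyte genes, and leaving out tumors moved it from -0.0751 to 0.18. It was -0.017 and -0.0090 without IK replicates 4 and 5 and -0.0751 without alone replicate 1. Gzmk, at 0.11, turned to -0.76 with pan-leukocyte genes, and was -0.0527 without IK replicate 1 and -0.0042 without IK replicate 2 (range to 0.24). Leaving out single tumors gave -0.91 to -0.20 for Prf1 (-0.22 without IK replicate 5), -0.35 to -0.01 for Fasl (-0.24, -0.08 and -0.06 without IK replicates 1 and 5 and alone replicate 2), -0.33 to -0.06 for Nkg7 (-0.11 without alone replicate 2), -0.57 to -0.22 for Gzma and -1.95 to -0.52 for Ifng (highest without IK replicate 1). The cause was not tested. Counting error limits Ifng, Gzmk, Gzmb and Fasl, with 1, 2, 4 and 4 reads in their lowest tumors.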
